A study of Mus musculus with 7 samples.

Results

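The 40 genes described here encode the chaperones of the endoplasmic reticulum (ER), the cytosol and the mitochondria, with the sensors, transcription factors and degradation factors of the unfolded protein response. They were taken by symbol from a table of 43626 genes, and all 40 were found and passed the filter on low values (10 or more normalized counts in 3 or more libraries), as did 17670 genes in all. The mice were male, of the strain C57BL/6J and 8 weeks old, and the tissue was prefrontal cortex. RNA sequencing covered 3 wild-type (WT) samples and 4 samples of the genotype written hDISC1AA/+ in the labels. DISC1 is a neuronal scaffold protein, and by its title the study asks how phosphorylation of DISC1 acts on cortical neurons. The labels name no treatment and no further allele in either group, and they do not say how the altered allele was made or that each sample is a separate mouse. Spread between samples may therefore be technical in part. The members comprise 15 ER chaperones and folding enzymes, 6 sensors and transcription factors of the response, 3 factors of ER-associated degradation, 13 cytosolic heat shock genes and 3 mitochondrial chaperones.

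Secreted and membrane proteins fold inside the ER with the help of BiP (Hspa5), its co-chaperones, the lectins calnexin and calreticulin, and the protein disulfide isomerases. When unfolded proteins gather there, the sensors IRE1, PERK and ATF6 start the unfolded protein response, in which the factors XBP1, ATF4 and cleaved ATF6 turn on chaperone and degradation genes. In the cytosol and nucleus HSF1 does the same for the heat shock proteins, and both systems are active at a basal level in neurons, which make large amounts of membrane and secreted protein.

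The control sequences of these genes are shown first, because the search in them made no use of the expression values. ATF6 and XBP1 act through the ER stress response element (ERSE), searched as CCAAT and CCACG with any 9 bases between them, and through ERSE-II, searched as ATTGG and CCACG with any 1 base between them. The XBP1-type element UPRE was searched as TGACGTGG, and the heat shock element (HSE), to which HSF1 binds, as the 3 blocks GAA, TTC and GAA, or TTC, GAA and TTC, with any 2 bases between blocks. Both strands were searched from 250 bases before to 50 bases after each RefSeq gene start of GRCm38.p6, and 32 of the 40 members had such a promoter window. An ERSE was found in 7 of the 13 ER chaperones with a window and in none of the other lists, against 0.119% of all 32851 promoters. The sites are printed 5′ to 3′ on the strand that carries the match, with the element in capitals and its flanks in lower case.
Hspa5 (chr2:34772015-34772053, plus strand): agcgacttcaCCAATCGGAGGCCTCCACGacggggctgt
Hsp90b1, distal site (chr10:86705628-86705666, minus strand): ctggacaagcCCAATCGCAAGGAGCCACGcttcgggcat
Hsp90b1, proximal site (chr10:86705523-86705561, plus strand): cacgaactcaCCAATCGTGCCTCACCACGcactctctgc
Calr (chr8:84847065-84847103, plus strand): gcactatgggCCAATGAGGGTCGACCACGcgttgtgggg
Canx (chr11:50325790-50325828, minus strand): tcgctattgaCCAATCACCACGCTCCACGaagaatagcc
Pdia6 (chr12:17266481-17266519, plus strand): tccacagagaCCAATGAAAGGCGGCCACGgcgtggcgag
Dnajc3 (chr14:118937817-118937855, plus strand): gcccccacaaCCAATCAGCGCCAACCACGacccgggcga
Creld2 (chr15:88819510-88819548, minus strand): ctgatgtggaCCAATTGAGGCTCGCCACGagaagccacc
In the direction of transcription the element of Hspa5 began 65 bases before the gene start, and the others lay up to 212 bases before it. Hsp90b1 was the single member with 2 of them. ERSE-II was found in Dnajb11 and in Herpud1, against 0.0365% of all promoters.
Dnajb11 (chr16:22857842-22857872, plus strand): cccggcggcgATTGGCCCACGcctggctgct
Herpud1 (chr8:94386367-94386397, plus strand): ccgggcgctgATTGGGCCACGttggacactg
A UPRE was found in none of the 32 members with a window and in 0.676% of all promoters. The HSE letters were found in Hsph1, and in the promoter that the mitochondrial pair Hspd1 and Hspe1 share head to head, against 0.603% of all promoters.
Hsph1 (chr5:149636278-149636310, minus strand): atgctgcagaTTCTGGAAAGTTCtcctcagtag
Hspd1 (chr1:55088054-55088086, minus strand): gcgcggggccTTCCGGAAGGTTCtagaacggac
Hspe1 (chr1:55088049-55088081, plus strand): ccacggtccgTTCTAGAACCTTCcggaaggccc
The Hspd1 and Hspe1 lines show the same stretch from its opposite strands, where 2 overlapping HSE matches lie. A match is a description of letters, and a window without one says nothing about whether a factor acts there.

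**Figure D1:**
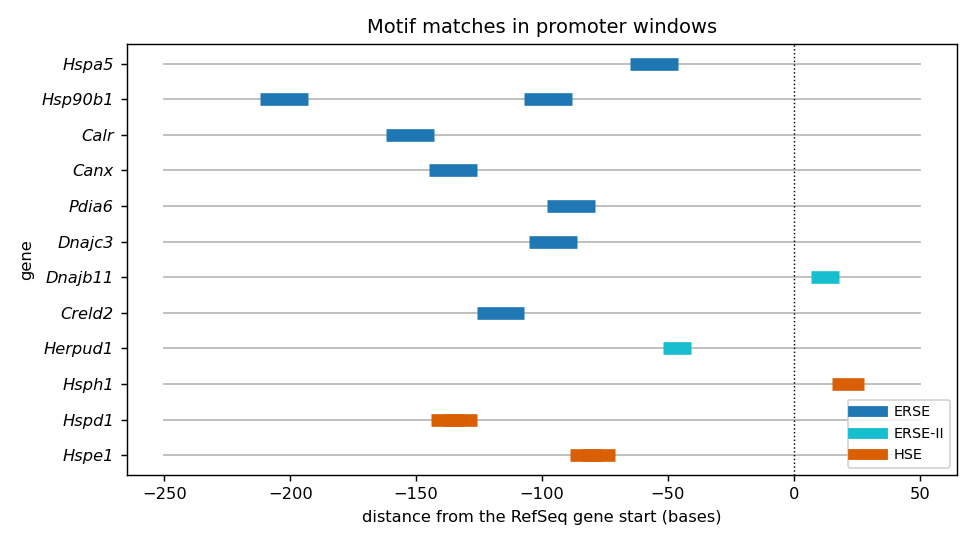
Position of the ERSE, ERSE-II and HSE matches in the promoter windows of the members that hold one. The horizontal axis is the distance from the RefSeq gene start in bases (negative before it) and each coloured bar is 1 match; ERSE appears in ER chaperones, beginning 65 to 212 bases before the start, and HSE in Hsph1, Hspd1 and Hspe1.

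The whole window of Hspa5, the gene of the central ER chaperone, is printed as an example (chr2:34771840-34772139, plus strand, the ERSE in capitals).
Hspa5: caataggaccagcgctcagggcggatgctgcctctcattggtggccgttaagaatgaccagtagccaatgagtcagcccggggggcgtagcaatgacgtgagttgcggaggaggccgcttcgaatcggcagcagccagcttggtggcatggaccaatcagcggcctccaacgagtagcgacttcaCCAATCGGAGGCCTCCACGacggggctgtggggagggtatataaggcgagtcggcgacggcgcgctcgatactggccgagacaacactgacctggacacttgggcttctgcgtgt

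The deposited values are normalized counts, that is reads assigned to a gene divided by 1 size factor per library, and all values given for genes are on that scale unless a log2 scale is named. Libraries held 33512557 to 63845254 assigned reads, with WT replicate 1 the deepest and the others at 36005116 or fewer. One hDISC1AA/+ column carries a number that matches no sample title, so it is called the unnumbered library. Values of hDISC1AA/+ are always listed in the order replicate 1, unnumbered, replicate 3, replicate 4. All 10 neuronal markers were detected in each library, with a summed level of 425914 to 490100. WT replicate 1 lay outside the other 6 libraries in its summed oligodendrocyte (137859, against 39274 to 50759), astrocyte (259832, against 151535 to 200734) and microglial markers (16684, against 10725 to 12799). It was also outside them in endothelial and mural (5430, against 12218 to 15462), meningeal (4625, against 5614 to 9697) and choroid plexus markers (205, against 492 to 1175). WT replicate 1 was the highest library for 7 of the 15 ER chaperones and WT replicate 2 for another 7. hDISC1AA/+ replicate 1 stood apart in the share of its deviations that GC content and transcript length accounted for (r² of 0.357, against 0.118 or less in the others). Its choroid plexus (1175), meningeal (9697) and blood marker sums (18451) were the highest of the 7 libraries. The blood sum was lowest in WT replicate 1 (2860, against 4088 to 18451 in the others).

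No member passed the test between the genotypes, and the fitted differences of all 15 ER chaperones were below 0. Of the 40 members, 0 had an adjusted p under 0.05 in limma (adjusted p 0.974 to 0.998), as did 0% of the 17670 genes tested. By edgeR 0% of 17540 and by DESeq2 0% of 28315 genes passed. An unadjusted limma p under 0.05 was reached by 4 members, against 2.44% of all genes, all 4 lower in hDISC1AA/+ (Dnajc3, Hsp90b1, Pdia3 and Dnaja1), against 1.3% of all genes in that direction. In the other direction 0 members reached it, against 1.14%. By edgeR 3 members reached it, against 452 of 17540 genes, and by DESeq2 4 members, against 604 of 28381. Without WT replicate 1 the limma count of members was 1, against 275 of 17528 genes. It was also 1 without WT replicate 2 (875 of 17510 genes) and without hDISC1AA/+ replicate 4 (467 of 17463). Without hDISC1AA/+ replicate 1 it was 6 (512 of 17534). It was 0 (331 of 17284) without hDISC1AA/+ replicates 1 and 4 together, an omission chosen after the data were seen. The values of the groups did not overlap for 8 members, all lower in hDISC1AA/+ (Hspa5, Canx, Pdia3, Dnajc3, Dnajb9, Sel1l, Hspa4 and Dnaja1), against 2.84% of all genes. None were higher without overlap, against 2.2%. The fitted log2 difference (hDISC1AA/+ minus WT, on log2 of the normalized count plus 1) was below 0 for 35 of the 40 members, against 52.2% of all genes, with a median of -0.13 against -0.01. The members were chosen with earlier results of these data known, so these counts are a description. For 29 of the 40 the 95% confidence interval of the difference lay within 1.5-fold either way, against 9550 of the 17670 genes tested. Of the ER chaperones, 7 of 15 had such an interval. Marker lists of other cell types had differences that ran mostly one way too, with 0 markers passing. Below 0 were 8 of 8 astrocyte, 9 of 9 oligodendrocyte, 7 of 8 microglial and 7 of 10 neuronal markers. Above 0 were 10 of 10 endothelial and mural, 7 of 7 meningeal, 3 of 4 choroid plexus and 5 of 7 blood markers. The oligodendrocyte sum was 137859 in WT replicate 1, 41528 and 50759 in the other WT libraries and 39274 to 45824 in hDISC1AA/+. The endothelial and mural sum was 5430 in WT replicate 1, 12469 and 15261 in the other WT libraries and 12218 to 15462 in hDISC1AA/+. For both lists the range of the other WT libraries overlapped that of hDISC1AA/+. The summed astrocyte level was 172069 to 259832 in WT and 151535 to 187275 in hDISC1AA/+, and the part of these lists in the members' differences was not tested. In bulk tissue, fewer cells of a type and less RNA per cell cannot be told apart.

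**Figure D2:**
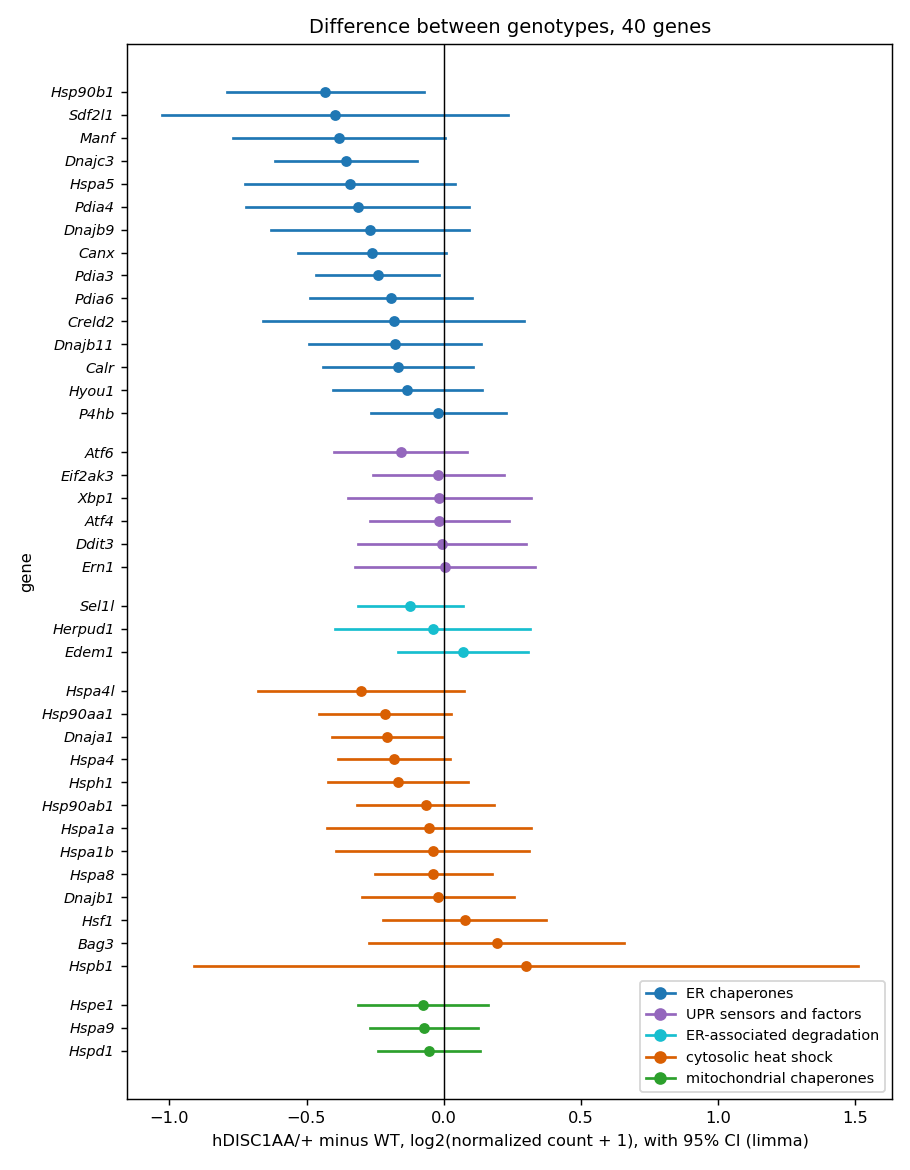
Fitted difference of each member between hDISC1AA/+ and WT on the log2(normalized count + 1) scale, with limma's 95% confidence interval, ordered within its list. The 15 ER chaperones all lie left of 0 (median -0.26) and the cytosolic genes run from -0.30 (Hspa4l) to 0.30 (Hspb1), with a median of -0.05; Hspb1 has the widest interval.

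The ER chaperones and folding enzymes were the list with the lowest median. All 15 had a fitted difference below 0, from -0.43 for Hsp90b1 to -0.02 for P4hb, with a median of -0.26. As percentages of the WT level the fitted differences were -25.9% for the ER form of HSP90 (Hsp90b1), -21.9% for the BiP co-chaperone Dnajc3 and -21.0% for BiP itself. The difference of Hsp90b1 was smaller in size without WT replicate 1, and that of BiP without hDISC1AA/+ replicate 4. The median was -0.172 without hDISC1AA/+ replicate 4, with 14 of 15 below 0. Without hDISC1AA/+ replicates 1 and 4 together it was -0.165 and 15 of 15 were below 0.

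Hspa5 (chr2:34771970-34777547 of GRCm38, plus strand) encodes BiP, the HSP70 of the ER, which holds nascent chains and keeps the stress sensors inactive. Its normalized counts were 13768, 15688 and 12690.2 in WT and 12670.5, 12297, 12084 and 7939 in hDISC1AA/+. Every hDISC1AA/+ library lay below every WT library, but 3 of the 4 by little (12670.5 against 12690.2 at the nearest), and replicate 4 was far lower. Group means were 14049 ± 1519 (SD, n = 3) and 11248 ± 2219 (SD, n = 4), with a log2 difference of -0.34 (95% CI -0.72 to 0.04; limma adjusted p = 0.974). Over the 35 ways to divide 7 libraries, exact permutation gave a two-sided p = 0.114, where 0.0286 is the smallest it can give. Without hDISC1AA/+ replicate 4 the log2 difference was -0.18.

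The co-chaperones of BiP among the 40 members had fitted differences from -0.40 to -0.13. Outside the members, the ER folding genes Sil1, Dnajc10 and Dnajc1 had differences of 0.15, -0.03 and -0.04. Dnajc3 (p58IPK), a J protein of the ER that also restrains PERK, had 2958, 3240.0 and 2991 in WT and 2130.3, 2746, 2545 and 2188 in hDISC1AA/+. The groups did not overlap, and replicates 1 and 4 were both low. Its log2 difference was -0.36 (95% CI -0.62 to -0.10; limma adjusted p = 0.974; exact permutation p = 0.0571), the smallest unadjusted p of the 40. Dnajb9 (ERdj4), a J protein that attaches BiP to the sensor IRE1, had 2158, 2225 and 2059.6 in WT and 1298, 1905, 2016 and 2022 in hDISC1AA/+. Replicate 1 alone was far down, while the other hDISC1AA/+ libraries lay just under the WT range (log2 difference -0.27, and -0.12 without replicate 1). Dnajb11 (ERdj3), which binds substrates together with BiP, had 2272, 2222 and 1993 in WT and 2138, 2103, 1985 and 1491 in hDISC1AA/+. Here replicate 4 was the low library, and the groups overlapped (log2 difference -0.18). Hyou1, the large HSP70 that exchanges nucleotide on BiP, had a log2 difference of -0.13. Sdf2l1, a partner of the ER J proteins, had 500.0, 642 and 498 in WT and 557, 489, 451 and 235 in hDISC1AA/+. Its mean gap was wide (log2 difference -0.40, 95% CI -1.03 to 0.23) but was -0.13 without replicate 4, and the other 3 libraries fell in or near the WT range.

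Hsp90b1 (GRP94; chr10:86690209-86705509, minus strand), which folds receptors and integrins, had 8699.8, 6954 and 5729 in WT and 4356, 5678, 5905 and 5032 in hDISC1AA/+. WT replicate 1 was the highest, hDISC1AA/+ replicate 1 the lowest, and WT replicate 3 lay inside the hDISC1AA/+ range. The log2 difference was -0.43 (95% CI -0.79 to -0.07; limma adjusted p = 0.974; exact permutation p = 0.0571), the largest of the 40 in size. Without WT replicate 1 it was -0.28, smaller than those of Dnajc3 (-0.38), Sdf2l1 (-0.46) and Hspb1 (-0.44) without that library.

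The lectin chaperones hold glycoproteins during folding. Canx (calnexin, in the ER membrane) had 16425, 15069 and 13909.7 in WT and 10359, 13283, 13657 and 13409.6 in hDISC1AA/+. All hDISC1AA/+ values were under the WT range, with replicate 1 lowest by a wide margin (log2 difference -0.26, 95% CI -0.53 to 0.01, and -0.17 without it). Calr (calreticulin, in the ER lumen) had 15657, 14387 and 13828 in WT and 14928, 13776, 13015 and 10728 in hDISC1AA/+. In this gene replicate 1 was the highest of its group and replicate 4 the lowest, and the groups overlapped (log2 difference -0.17, and -0.07 without replicate 4). Per kb of exon Calr was the most abundant ER member, at a mean of 4778 normalized counts per kb.

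The protein disulfide isomerases form and rearrange disulfide bonds. Pdia3 (ERp57; chr2:121413775-121438687, plus strand), which works with the lectins, had 8548, 8358 and 7644 in WT and 7115, 7281, 7295 and 6065 in hDISC1AA/+. The groups were separate in all 7 libraries, with 3 hDISC1AA/+ libraries close together and replicate 4 under them. Means were 8183 ± 477 (SD, n = 3) and 6939 ± 588 (SD, n = 4), a log2 difference of -0.24 (95% CI -0.47 to -0.02; limma adjusted p = 0.974). By exact permutation the p was the smallest possible, 0.0286. Pdia4 (ERp72) had 1685, 2377 and 1862 in WT and 1865, 1748, 1599 and 1173 in hDISC1AA/+. WT replicate 1 was among the low values there, and the groups overlapped (log2 difference -0.31, and -0.17 without hDISC1AA/+ replicate 4 or without WT replicate 2). Pdia6 differed by -0.19 and P4hb, the founding isomerase and a subunit of prolyl 4-hydroxylase, by -0.02, both with overlap. For Pdia3 and Pdia6 a coding gene overlaps on the opposite strand (Catsper2 and Atp6v1c2), and the strand setting of the counting is not given in the sources used here.

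Manf and Creld2 encode small secreted ER proteins that respond to ER stress. Manf, a neurotrophic factor that stabilises BiP, had 1355, 1194 and 988 in WT and 977, 1041, 941 and 677 in hDISC1AA/+. WT replicate 3 lay inside the hDISC1AA/+ range and replicate 4 under all others (log2 difference -0.38, 95% CI -0.77 to 0.00; limma adjusted p = 0.974), with -0.25 when replicate 4 was left out. Manf overlaps the coding gene Dcaf1 on the opposite strand and the coding gene Rbm15b on the same strand, and their part in its count was not tested. Creld2 had a log2 difference of -0.18, with a WT range of 496 to 729 and an hDISC1AA/+ range of 375 to 654.

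**Figure D3:**
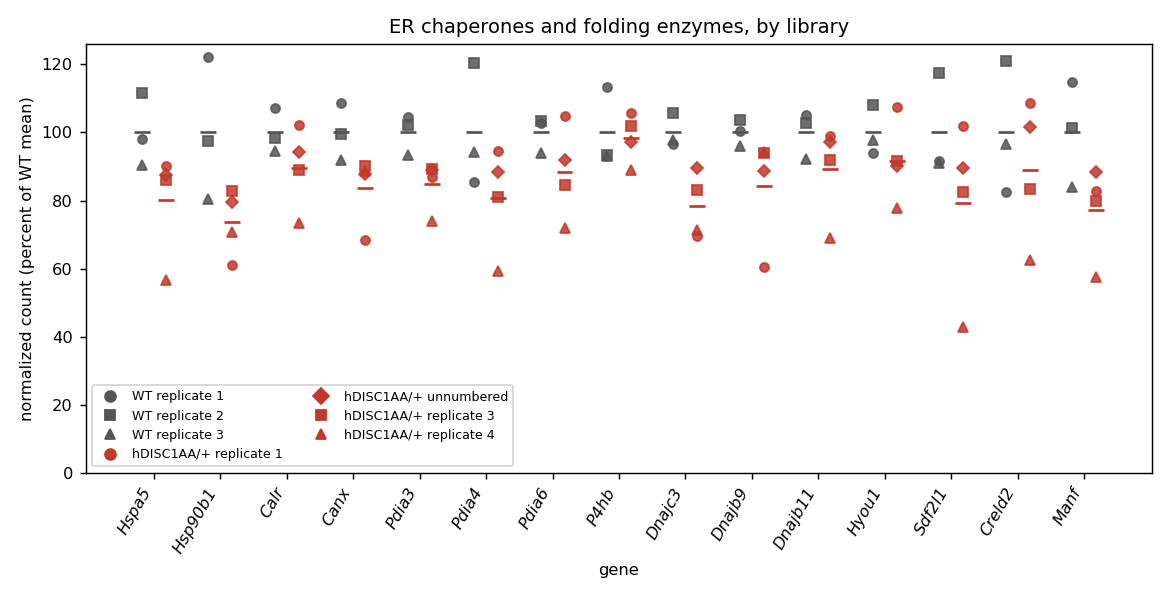
Normalized count of the 15 ER chaperones and folding enzymes in each library, as percent of the gene's WT mean; dashes are group means, symbols mark libraries. hDISC1AA/+ replicate 4 (red triangle) is lowest in 11 genes and hDISC1AA/+ replicate 1 (red circle) in the other 4.

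The lowest library of an ER chaperone was always hDISC1AA/+ replicate 4 or replicate 1, and which of them it was divided the 15 genes. Replicate 4 was lowest for 11 (Hspa5, Calr, Pdia3, Pdia4, Pdia6, P4hb, Dnajb11, Hyou1, Sdf2l1, Creld2 and Manf) and replicate 1 for 4 (Hsp90b1, Canx, Dnajc3 and Dnajb9). The 4 genes had a transcript GC content of 40.6% to 43.2%, and the 11 genes 45.6% to 56.7%, so these ranges did not overlap. Over the 40 members, the deviation of replicate 1 from the mean of the 7 libraries went with GC content (Pearson r = 0.727, Spearman rho = 0.658), while that of replicate 4 did so weakly (r = -0.232). In WT it went the opposite way in replicate 1 (r = -0.562) and the same way in replicate 3 (r = 0.407). These correlations are across genes that share each library, and are given as a description. After removal of each library's trend on GC content and length the median of the ER chaperones was -0.25, with 15 of 15 below 0.

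In hDISC1AA/+ replicate 4 the 15 ER chaperones had a mean deviation of -0.376 from the average of the 7 libraries on the log2 scale, with 14 of them below it. The same library deviated by -0.108 for the sensors and factors (5 of 6 below the average), -0.0699 for the degradation factors, -0.0651 for the cytosolic heat shock genes, -0.0436 for the mitochondrial chaperones and -0.0346 for 22 other ER folding genes. Its summed neuronal markers (474064) and astrocyte markers (176484) lay inside the range of the other hDISC1AA/+ libraries, and so did its oligodendrocyte (43547), microglial (11928) and endothelial and mural sums (13047). Its meningeal (5614) and choroid plexus sums (595) were the lowest of that group. The part of these in the result was not tested.

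ER chaperones with and without an ERSE had medians near each other. The 7 with the element had a median log2 difference of -0.26 (from -0.43 to -0.17), and the 6 with a promoter window and no ERSE had a median of -0.25 (from -0.40 to -0.02). The 6 include Dnajb11, which carries an ERSE-II, so they are not a set without any such element. Hyou1 and Manf had no window and are in neither set. Replicate 4 was the lowest library for 4 of the 7 and 5 of the 6. Groups did not overlap for 3 of the 7 and 2 of the 6, all lower, against 2.84% of all genes. Among the genes with the element, Hspa5 and Dnajc3 lay at the lower end of the range with Hsp90b1, and Calr at the upper end.

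The sensors and transcription factors of the unfolded protein response had fitted differences close to 0. Of the 6, 5 had a fitted difference below 0 and 1 above it. The median was -0.02 and the range -0.16 to 0.00. The 95% confidence intervals of all 6 lay within 1.5-fold, against 9550 of the 17670 genes tested. Ern1, which encodes the sensor IRE1, had 509, 712 and 675 in WT and 558, 638, 699 and 620.3 in hDISC1AA/+, with group means of 632 ± 108 and 629 ± 57.7 (SD, n = 3 and 4). Eif2ak3, which encodes the sensor PERK, had means of 1111 ± 89.0 and 1096 ± 78.4. For both sensors the hDISC1AA/+ values fell in or near the WT range. Atf6, the sensor that is itself cut into a transcription factor, had 5266, 4704 and 4333 in WT and 4127, 4046, 4844 and 4086 in hDISC1AA/+. Of its hDISC1AA/+ libraries 3 sat together under the WT range and replicate 3 sat inside it (log2 difference -0.16, 95% CI -0.40 to 0.09).

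The downstream factors had fitted differences of -0.02 to -0.01. Xbp1, whose messenger is spliced by IRE1, had 2702, 3899 and 3448 in WT and 3639, 3439, 3356 and 2747 in hDISC1AA/+. Its low libraries were WT replicate 1 and hDISC1AA/+ replicate 4, so the groups spanned much the same range (log2 difference -0.02, 95% CI -0.35 to 0.32); gene-level counts do not separate its spliced form. Atf4, translated when PERK is active, had 3711, 3850.0 and 2927 in WT and 3610.0, 3362, 3379 and 3396 in hDISC1AA/+. The hDISC1AA/+ values were narrow and lay inside the WT range (log2 difference -0.01, 95% CI -0.27 to 0.24). Ddit3 (CHOP), the factor of lasting ER stress, had 768, 738 and 648 in WT and 702, 791, 791 and 590.5 in hDISC1AA/+. Its means were 718 ± 62.3 and 719 ± 95.1 (SD, n = 3 and 4), and 6.09% of its 50-base stretches recur in another annotated copy of the gene.

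ER-associated degradation moves misfolded proteins out of the ER to the proteasome. Sel1l, the adaptor of the ubiquitin ligase HRD1, had 9265, 10612 and 9782 in WT and 9138, 8809, 9229.7 and 9140.4 in hDISC1AA/+. All hDISC1AA/+ values lay under the WT range, by a margin smaller than the SD of WT at the nearest pair (9265 against 9229.7, with a WT SD of 679). The log2 difference was -0.12 (95% CI -0.31 to 0.07; limma adjusted p = 0.974; exact permutation p = 0.0286), and -0.07 without WT replicate 2. Herpud1, an ER membrane partner of that ligase and a strong target of the response, had 1650.1, 2480.5 and 2151 in WT and 2199, 1961, 2225 and 1694 in hDISC1AA/+. WT replicate 1 and hDISC1AA/+ replicate 4 were again the low libraries, and the log2 difference was -0.04. Edem1, a lectin that picks glycoproteins for degradation, had a fitted difference of 0.07 (95% CI -0.17 to 0.31).

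The cytosolic heat shock genes had a median difference of -0.05, with 10 of 13 below 0 and 3 above (Hsf1, Bag3 and Hspb1). Of the 13, 1 reached an unadjusted limma p under 0.05 (Dnaja1, lower), against 1.3% of all genes in that direction. The groups did not overlap for 2, Hspa4 and Dnaja1, both lower, against 2.84%. The confidence intervals of 10 of the 13 lay within 1.5-fold, against 9550 of the 17670 genes tested. Levels ranged from 76.4 normalized counts per kb of exon for the inducible Hspa1a to 12370.3 for the constitutive Hspa8 and 18092.5 for Hsp90ab1, the highest of the 40 members.

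Among the HSP70 genes, the inducible pair Hspa1a and Hspa1b, which rise in heat shock, was low in both groups. Hspa1a had 264, 187 and 248 in WT and 237, 201, 225 and 225 in hDISC1AA/+, and Hspa1b 619, 685 and 709 against 602, 531, 823 and 687. The ranges overlapped for both (log2 differences -0.05 and -0.04). These genes are near copies: 60.3% of the 50-base stretches of Hspa1a recur in other genes, nearly all in Hspa1b, so how reads were divided between them is uncertain. Hspa8 (HSC70), the constitutive HSP70, had 57033, 54977 and 49884 in WT and 58495, 49758, 52716 and 49569 in hDISC1AA/+. The groups spanned a like range (log2 difference -0.04, 95% CI -0.25 to 0.18), with 51.4% of its stretches shared, mostly with the pseudogene Gm15459.

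The HSP110 genes, which release nucleotide from HSP70, had fitted differences from -0.30 to -0.17. Hspa4 had 11591, 10144 and 10003 in WT and 9028, 8963, 9797 and 9494 in hDISC1AA/+. These groups were separate (log2 difference -0.18, 95% CI -0.38 to 0.02; limma adjusted p = 0.974; exact permutation p = 0.0286), and the difference was -0.11 without WT replicate 1. Hsph1, which carries the HSE printed earlier, had 15332, 12951 and 12139.9 in WT and 13067, 11077, 12714 and 11061 in hDISC1AA/+. WT replicate 1 was the high library, and the groups overlapped (log2 difference -0.17, and -0.07 without it). Hspa4l had 9149, 9949 and 8227 in WT and 5306, 8019, 8181 and 8473 in hDISC1AA/+. Replicate 1 was far below the others (log2 difference -0.30, 95% CI -0.68 to 0.08, and -0.14 without it), and with a GC content of 39.5% it has the lowest of the 40.

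The cytosolic HSP90 genes overlapped between the groups. Hsp90aa1, the inducible form, had 43767, 42785 and 38018 in WT and 30791, 35761, 38641 and 38284 in hDISC1AA/+. WT replicate 3 fell among the hDISC1AA/+ values and replicate 1 under all (log2 difference -0.21, 95% CI -0.45 to 0.03); 58.5% of its stretches are shared, mostly with the pseudogene Gm12346. Hsp90ab1, the constitutive form, had a difference of -0.07 and its highest value in hDISC1AA/+ replicate 1 (62609.9).

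The J proteins Dnaja1 and Dnajb1 bring substrates to cytosolic HSP70. Dnaja1 had 12468, 12404 and 11681 in WT and 9590.4, 10605, 11209 and 10941 in hDISC1AA/+. The groups were separate, with replicate 1 the lowest (log2 difference -0.20, 95% CI -0.41 to -0.00; limma adjusted p = 0.974; exact permutation p = 0.0286). Dnaja1 overlaps the coding gene Smu1 on the opposite strand, and 18.7% of its stretches recur in other genes. Dnajb1, the heat-inducible J protein, had 3116, 3624 and 3817 in WT and 3887, 3005, 3729 and 3279 in hDISC1AA/+, with no order between the groups (log2 difference -0.02).

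Hsf1, the master factor of the heat shock response, had means of 1210.3 ± 115 in WT and 1282 ± 179 in hDISC1AA/+ (SD, n = 3 and 4). Bag3, a co-chaperone of selective autophagy and an HSF1 target, had 208, 239 and 381 in WT and 289.8, 293, 336 and 305 in hDISC1AA/+. The WT values were spread on both sides of a narrow hDISC1AA/+ range (log2 difference 0.19, 95% CI -0.27 to 0.66). Hspb1, a small heat shock protein, had 76.4, 313 and 406 in WT and 319, 289.6, 277 and 187 in hDISC1AA/+. Its means were nearly level (265 and 268), and the log2 difference of 0.30 (95% CI -0.91 to 1.51) came from the low WT replicate 1: without that library it was -0.44. In that library the endothelial marker Cldn5 was also low (316, against 985 to 1411 in the others), and its part in the Hspb1 value was not tested. Hspb1 shares 51.6% of its stretches with the pseudogene Hsp25-ps1.

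**Figure D4:**
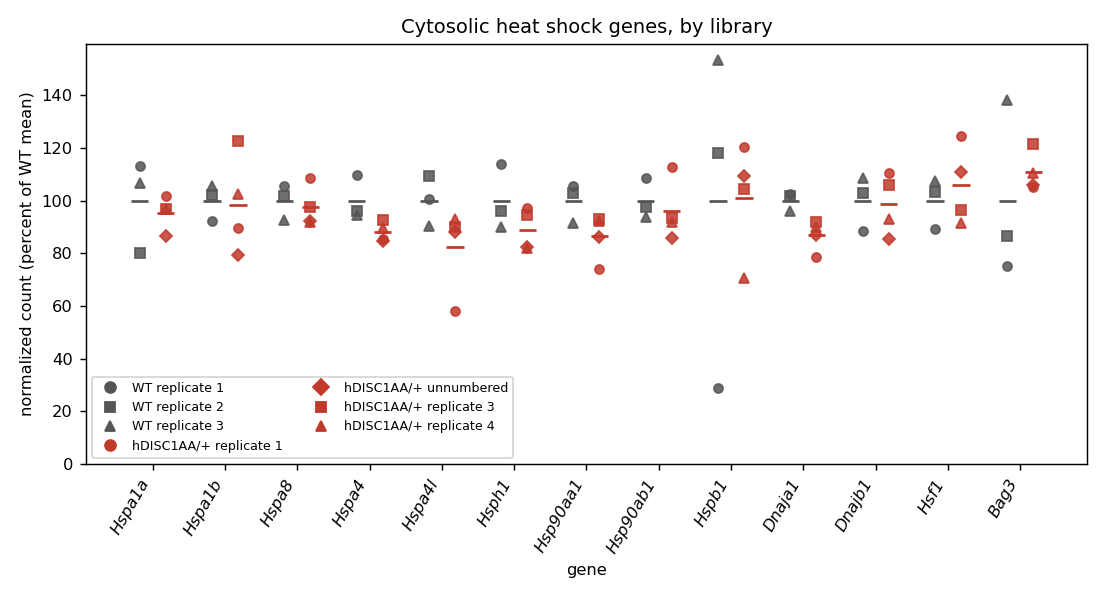
Normalized count of the 13 cytosolic heat shock genes in each library, as percent of the gene's WT mean; dashes are group means, symbols mark libraries. Group means lie between 82.3% and 111% of WT, and WT replicate 1 is far below the rest for Hspb1.

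The mitochondrial chaperones fold proteins imported into the matrix, and all 3 had small fitted differences below 0. Hspd1 (HSP60), which forms a folding chamber, had 5495, 5987 and 5525 in WT and 5533, 5265, 5445 and 5588 in hDISC1AA/+. The groups overlapped (log2 difference -0.05, 95% CI -0.24 to 0.13). Its lid Hspe1 (HSP10) differed by -0.08, and Hspa9 (mortalin), the HSP70 of the matrix, by -0.07, both with overlapping groups. Hspd1 and Hspe1 overlap on opposite strands, and 44.8% of the stretches of Hspd1 recur, mostly in its pseudogenes.

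The contrast that the gene set was built around, ER against cytosol, was in the direction of lower ER members in hDISC1AA/+ but overlapped between the groups. The ER members were taken as the 15 chaperones with the 3 degradation factors, and the mean log2 level of the 13 cytosolic genes was subtracted from theirs in each library. This gave -0.165, -0.193 and -0.435 in WT and -0.380, -0.277, -0.440 and -0.618 in hDISC1AA/+. WT replicate 3 lay inside the hDISC1AA/+ range, and hDISC1AA/+ replicate 4 was the lowest of all. Means were -0.264 ± 0.149 (SD, n = 3) and -0.429 ± 0.143 (SD, n = 4), a difference of -0.164 that is close to the SD of either group. It was -0.101 without hDISC1AA/+ replicate 4 and -0.25 without WT replicate 3. Each cytosolic gene counts equally in the mean, Hspb1 among them. Hspb1 had 76.4 in WT replicate 1, against 313 and 406 in the other WT libraries, and its part in the contrast was not tested.

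Taken alone, the mean log2 level of the 18 ER members was 11.70, 11.81 and 11.63 in WT and 11.56, 11.59, 11.56 and 11.26 in hDISC1AA/+. These did not overlap, and differed by -0.219 between group means. The cytosolic mean was 11.98 ± 0.0996 in WT and 11.92 ± 0.0627 in hDISC1AA/+ (SD, n = 3 and 4). Its deviations from the average of the 7 libraries were -0.0781, 0.0556 and 0.117 in WT and -0.00455, -0.0811, 0.0565 and -0.0651 in hDISC1AA/+. Those values overlapped, with a difference of -0.055 between group means. The median difference of the 18 ER members was -0.22 (17 of 18 below 0), and -0.13 without hDISC1AA/+ replicate 4.

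**Figure D5:**
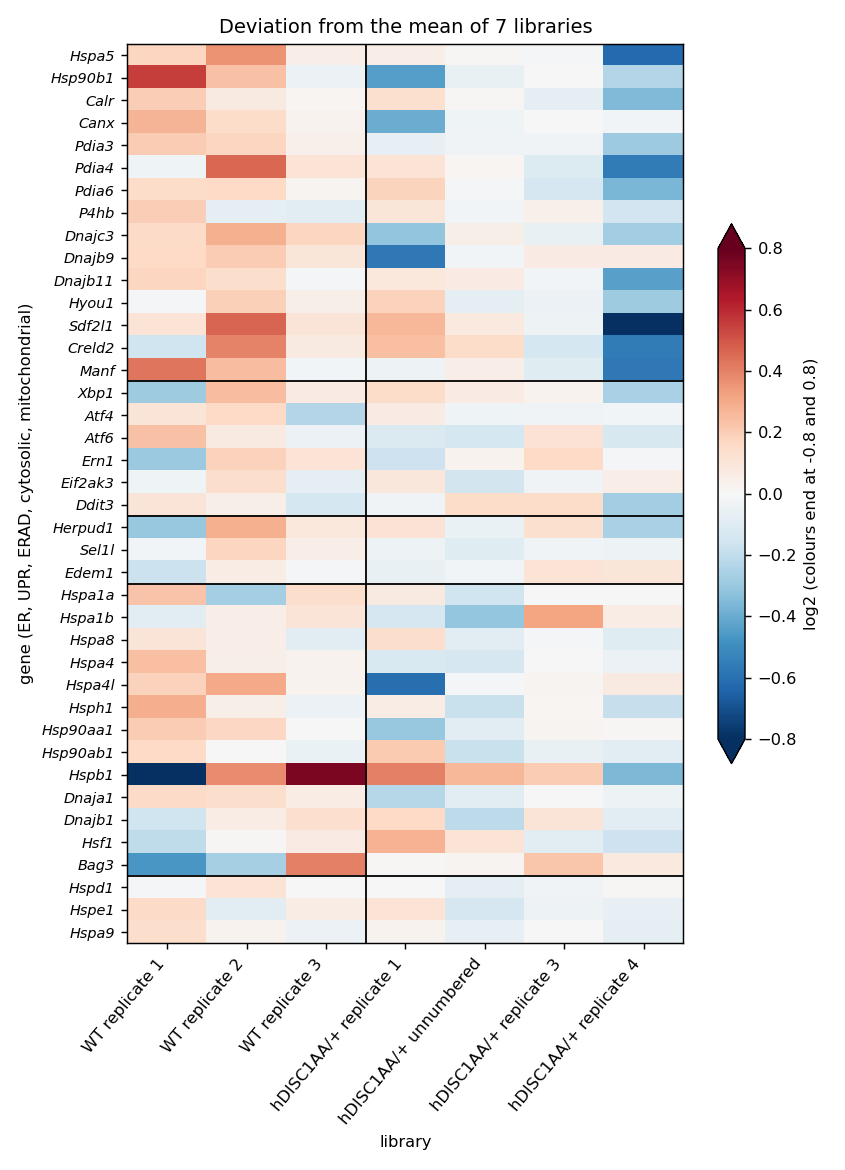
Deviation of each member in each library from the gene's mean over the 7 libraries on the log2(normalized count + 1) scale, with lists separated by horizontal lines and genotypes by the vertical line. Blue in hDISC1AA/+ replicate 4 is concentrated in the ER chaperones (mean deviation -0.376), and replicate 1 is blue in Hsp90b1, Canx, Dnajc3, Dnajb9 and Hspa4l.

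Other genes of these pathways, from lists that do not include the 40 members, had medians from -0.09 to 0.00, against -0.26 for the 15 ER chaperones and -0.01 for all genes. None passed in limma, and none had an unadjusted p under 0.05, against 2.44% of all genes. Of 22 other ER folding genes 17 were below 0, with a median of -0.04. Those with the smallest p were Erp44 (log2 difference -0.32), Pdia5 (0.62, at low counts) and Hspa13 (-0.35). Erp44 retains oxidases in the early secretory pathway. The groups did not overlap for 1 of the 22 genes that was lower (Erp44), against 2.84% of all genes. They also did not for 1 that was higher (Sil1, 0.15), against 2.2%. Of 25 other degradation and translocon genes 17 were below 0 (median -0.08), led by the mannosidase-like Edem3 (-0.27) and the translocon partners Sec62 (-0.39) and Sec63 (-0.20). Of 18 other signalling genes of the response 12 were below 0 (median -0.03), led by Wfs1, an ER membrane protein (0.27), the initiation factor Eif2s1 (-0.20) and Bbc3, a promoter of cell death (0.26).

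Targets of ATF4 and CHOP showed no common direction, with 9 of 20 below 0 and a median of 0.00. Cebpb (1.22) and Trib3 (0.77) had the largest differences among the first 3 by p but low levels, with means of 43.4 and 102 for Cebpb and of 6.67 and 11.2 for Trib3 in WT and hDISC1AA/+, and Vldlr had -0.18. Of 39 other cytosolic chaperone genes 30 were below 0 (median -0.09), led by the heat shock factor gene Hsf4 (0.27, the groups not overlapping), Chordc1 (-0.48), an HSP90 partner, and Dnajc6 (-0.16), which uncoats clathrin vesicles. Among the 39, the groups did not overlap for 2 lower and 1 higher, against 2.84% and 2.2% of all genes. Of 11 other mitochondrial genes 7 were below 0 (median -0.03), led by Clpx (-0.14), Timm44 (0.17) and Lonp1 (0.09).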

How the data were processed

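Bulk RNA sequencing of prefrontal cortex gave 7 libraries, 3 WT and 4 hDISC1AA/+. Per the labels' protocols, RNA was extracted with Trizol and libraries were made with a NEBNext Ultra RNA kit. Of tools and builds, the submitters' processing notes list mm10, HTSeq 0.6.1, HISAT2 2.1.0, DESeq2 1.26.0 and Trimmomatic 0.39, without role or order. For the annotation and strand setting, nothing is given in the sources used here. The deposited values are a signal, reads divided by 1 size factor per library: in every column 100% of the values were whole multiples of 1 step, within a tolerance of 0.01 reads, so whole reads were recovered. A further 3 genes whose line is split in the file were left out (at most 0.0169% of a library). Symbols and coordinates come from GENCODE M21 (GRCm38, the assembly that mm10 names), and promoter sequences from RefSeq (GRCm38.p6).

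Genes at 10 or more normalized counts in at least 3 libraries were fitted with limma 3.58.1 (trend, robust, no covariate, two-sided) on log2(normalized count + 1), with Benjamini-Hochberg adjustment over 17670 genes and a threshold of 0.05. This scale understates differences of genes with low counts. edgeR 4.0.16 (quasi-likelihood) and DESeq2 1.42.0 were run on the recovered reads as alternatives, beside other scalings, pseudocounts, filters, library weights, GC and length correction, and omission of libraries. The limma and edgeR fits, but not DESeq2, were tested on simulated counts drawn independently for each gene. Single genes were also compared by exact permutation. Lists are described by counts and medians, without a test. Shared 50-base stretches were counted between the longest annotated transcript of each member and the transcripts of all other annotated genes. The members and lists were chosen with earlier results of these data known. Values in every library were given for the main members of each role, for the 6 members of smallest p and for those whose groups did not overlap. Of each other pathway list the 3 genes of smallest p are named.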

Additional observations from a re-analysis of the deposited data

Results flagged for a closer look

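For 7 of the 40 members 1 hDISC1AA/+ library lay far from the other 3. The gap to its nearest neighbour, divided by the range of the group, exceeded the 95% critical value of Dixon's test for 4 samples. Chance gives about 1 such gene in 20. In these libraries the same rule marked 1410 of all 17670 genes (7.98%), with replicate 1 as the distant library for 5.43%, replicate 3 for 0.719% and replicate 4 for 0.792%, and genes measured in the same library are not independent. For Hspa5 (ratio 0.876) and Pdia3 (0.854) the library was replicate 4, on the low side. For Canx (0.887), Dnajb9 (0.838) and Hspa4l (0.857) it was replicate 1, also on the low side. Replicate 1 was high for Atf4 (0.864), and replicate 3 was high for Atf6 (0.899). The group of 3 WT libraries is too small for this test.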

How the results depend on the processing

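No gene and no member passed under any alternative run, and the ER median, the cytosolic median and the ER-minus-cytosolic difference kept their sign in all of them. The median of the 18 ER members, chaperones with degradation factors, was -0.125 (without hDISC1AA/+ replicate 4) to -0.262 with 1 library left out, and that of the 15 chaperones alone -0.172 to -0.3. The cytosolic median was -0.0962 to -0.0111 and the ER-minus-cytosolic difference -0.25 to -0.101. That difference was -0.0569 with limma's array weights, which rest the WT side on WT replicate 3 (weight 5.23, against 0.942 and 0.244), and -0.0941 without hDISC1AA/+ replicates 1 and 4. Genes with an unadjusted p under 0.05 numbered 218 to 875 with a library left out and 1823 with array weights, against 431. No more than 7 members reached it under any alternative, and the 15 ER chaperones had 0 to 6. The count of 7 came without WT replicate 1 and hDISC1AA/+ replicate 1 together, against 580 of 17374 genes. No paired analysis was possible because the labels carry no replicate numbers and those used here only name samples.

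Single members changed sign, most of them near 0 and with Hspb1 (0.30) and Bag3 (0.19) farther from it, and the cause was not tested. With upper-quartile scaling the log2 difference was 0.000106 for P4hb, 0.00456 for Xbp1, 0.00492 for Atf4, 0.000744 for Eif2ak3 and 0.0145 for Ddit3. edgeR gave 0.00608 for Ddit3 and DESeq2 gave -0.00331 for Ern1. Array weights gave 0.044 for P4hb, 0.142 for Atf4, -0.0503 for Ern1, 0.0103 for Eif2ak3, 0.113 for Ddit3, 0.0121 for Hspa8, -0.544 for Hspb1, -0.083 for Hsf1 and -0.158 for Bag3. Without WT replicate 1 and hDISC1AA/+ replicate 1 together it was 0.0389 for P4hb, 0.0095 for Atf4, -0.0883 for Ern1, 0.0529 for Ddit3, 0.0112 for Hspa1a, -0.53 for Hspb1 and -0.0843 for Hsf1. Without hDISC1AA/+ replicates 1 and 4 together, an omission chosen after the data were seen, it was 0.0366 for Xbp1, 0.143 for Ddit3 and 0.0165 for Herpud1. With 1 library left out the ranges were -0.138 to 0.0599 for Atf4, -0.077 to 0.0857 for Ddit3, -0.106 to 0.0469 for Dnajb1, -0.0599 to 0.0456 for Eif2ak3 and -0.144 to 0.0975 for Ern1. They were -0.202 to 0.0918 for Herpud1, -0.00456 to 0.143 for Hsf1, -0.206 to 0.0427 for Hspa1a, -0.151 to 0.059 for Hspa1b and -0.0926 to 0.00403 for Hspa8. For Hspb1 the range was -0.437 to 0.761, for P4hb -0.0677 to 0.0741 and for Xbp1 -0.162 to 0.102.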
